A study of Homo sapiens with 2 samples.

Results

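The transcripts described are the non-coding host genes of small RNAs and the antisense and intronic transcripts of RKO, an established human colon cancer cell line. They were chosen by gene symbol and by their level on the array. A gene was included if its symbol began with SNHG, began with MIR and ended with HG, or ended in -AS1, -AS2, -AS3 or -IT1, or was MALAT1, NEAT1 or GAS5, and if its probe set carried no other symbol. Of 851 genes with such a symbol, 411 were detected, out of 14507 detected genes in all. Detected means that the mean of log2(intensity + 1) over both arrays lay at or above the 40th percentile of all 54675 probe sets, an intensity of 63.7. The 411 members were 371 antisense transcripts, 11 transcripts from within introns, 21 microRNA host genes, 7 snoRNA host genes and MALAT1. NEAT1 had no probe set with a single symbol and is described apart from the members.

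Both groups were RKO cells infected with a retrovirus and kept in puromycin for 72 to 96 h to leave infected cells. The sh-Luci cells carried a control hairpin against luciferase. The sh-BCLAF1-L cells carried 1 hairpin against BCLAF1-L, the longer protein form made from BCLAF1, a nuclear gene product bound to splicing complexes. Each group had 1 Affymetrix array and no replicate, so every value is a single measurement, no p-value is given, and the effect of the hairpin, the culture and the array cannot be told apart. The targeted gene, BCLAF1, read 2505 in sh-Luci and 945 in sh-BCLAF1-L on its brightest probe set. All 6 of its probe sets were lower in sh-BCLAF1-L, by 1.43-fold to 2.96-fold, and which of them detect the long form was not tested.

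Many long non-coding RNAs are named for what lies in or beside their genes. SNHG genes and GAS5 are spliced transcripts whose introns are trimmed into small nucleolar RNAs (snoRNAs), the guides for chemical modification of ribosomal RNA. The spliced RNA that remains is often short-lived because nonsense-mediated decay, a surveillance of translated RNA, removes it. MicroRNA host genes carry hairpins that are cut out by DROSHA and then by DICER1. The resulting microRNA pairs with mRNAs mainly through its seed. Antisense transcripts run on the strand opposite to a coding gene, often from the same promoter region, and are usually less abundant than the coding mRNA. MALAT1 and NEAT1 are abundant nuclear RNAs of nuclear speckles and paraspeckles. An array of this kind measures the host transcript and not the mature microRNA or snoRNA.

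The member with the largest difference, MIR100HG, hosts microRNAs that share their seed with those of other members. The mature sequences are shown because the seeds of miR-100-5p and let-7a-5p recur in other member host genes. The let-7a-5p sequence itself is also made from a hairpin in MIRLET7BHG. The set of hairpins matched to host genes may be incomplete, so the seed of miR-125b-5p is not called particular to MIR100HG. The sequences come from RefSeq, build GRCh38.p14, and are written 5′ to 3′ with the seed, bases 2 to 8, in capitals. The minus-strand hairpins of MIR100HG gave miR-100-5p at chr11:122152275-122152296, let-7a-5p at chr11:122146568-122146589 and miR-125b-5p at chr11:122099809-122099830.
hsa-miR-100-5p (MIR100HG): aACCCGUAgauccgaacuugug
hsa-let-7a-5p (MIR100HG): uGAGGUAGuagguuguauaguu
hsa-miR-125b-5p (MIR100HG): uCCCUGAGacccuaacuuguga
hsa-miR-99a-5p (MIR99AHG): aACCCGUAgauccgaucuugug
hsa-let-7c-5p (MIR99AHG): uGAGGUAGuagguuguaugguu
hsa-let-7b-5p (MIRLET7BHG): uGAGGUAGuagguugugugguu
hsa-miR-4500 (MIR4500HG): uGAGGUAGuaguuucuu
The plus-strand hairpins of MIR99AHG lie on chromosome 21 and gave miR-99a-5p at chr21:16539101-16539122 and let-7c-5p at chr21:16539838-16539859. Within the matched sequences, the seed ACCCGUA occurred in 2 host genes and the seed GAGGUAG in 4.

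MIR100HG stood at an intensity of 104 in sh-Luci and 229 in sh-BCLAF1-L. The difference, sh-BCLAF1-L minus sh-Luci on the log2(intensity + 1) scale, was 1.13, or 2.18-fold. It was the only one of the 411 members past 2-fold in either direction. Past 2-fold, 0.0689% of all detected genes were higher and 0.00689% lower. A second MIR100HG probe set was not detected, with 24.7 in sh-Luci and 25.9 in sh-BCLAF1-L, and differed by 0.065. The higher level of this host transcript therefore rests on 1 probe set.

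The other host genes with the same seeds differed less. MIR99AHG, the host of miR-99a and let-7c, read 104 and 96.7 on its brightest probe set, a difference of -0.11. Its second detected probe set went the other way, with 79.1 and 98.8, a difference of 0.32. MIRLET7BHG, the host of let-7b and of another let-7a hairpin, read 363 and 450.3, a difference of 0.31. Its second probe set read 164 and 150.3, a difference of -0.12. MIR4500HG read 136 and 145, a difference of 0.092. Within each of MIR99AHG and MIRLET7BHG the probe sets disagreed in direction, so no direction is given for either gene.

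Of the 21 microRNA host genes, 9 were higher and 12 lower in sh-BCLAF1-L, with a median difference of -0.031, while 55.0% of all detected genes were higher. The host counts were the same after the median difference of all probe sets, 0.026, or a loess fit against mean level was subtracted. The share of all detected genes above 0 fell to 48.0% and 51.0% under these subtractions. With the stricter limit of the 60th percentile, 13 host genes remained and their median was 0.092. For 19 of the 21, RefSeq places at least 1 microRNA hairpin inside the host gene, and 30 hairpins were found in all.

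Further microRNA hosts with positive differences were MIR3681HG, with 75.3 and 93.6 (0.31), and MIR1915HG, with 149 and 181 (0.28). Across its probe sets the median difference of MIR1915HG was 0.11. MIR200CHG, the host of the miR-200c and miR-141 hairpins that are known for their role in epithelial cells, read 136 and 159 (0.22). MIR210HG, the host of the hypoxia-responsive miR-210, read 99.9 and 111 (0.15). MIR1-1HG, which carries the muscle microRNAs miR-1 and miR-133a, gave the strongest signal of the 21 member hosts, at 461 and 513 (0.15). MIR9-1HG read 331 and 369 (0.16), but -0.19 and -0.22 were found on the other detected ones. All of these lay under a lower threshold of 0.32 on the log2 scale either way, which is 25% higher or 20% lower. Among all detected genes 4.16% passed it upward and 2.21% downward.

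The remaining hosts were level or lower in sh-BCLAF1-L on the probe set that stands for the gene. MIR34BHG, the host of miR-34b and miR-34c, microRNAs induced by p53, read 124 on each array (-0.0023). MIR4435-2HG read 138 and 135 (-0.031), and MIR550A3HG 224 and 215 (-0.059). A second MIR550A3HG probe set went the other way, with 144 and 175 (0.28). MIR31HG, which hosts miR-31, read 131 and 118 (-0.14). Small lower values were found for MIR181A2HG at 72.8 and 69.0, MIR3936HG at 166 and 157, MIR2052HG at 138 and 129 and MIR924HG at 86.3 and 79.1, with differences from -0.12 to -0.077. The lowest differences were those of MIR3945HG, at 95.7 and 78.8 (-0.28), MIR9-3HG, at 80.4 and 69.2 (-0.21), and MIR4300HG, at 75.7 and 68.3 (-0.15). None of the 12 lower hosts reached 20% lower.

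**Figure D1:**
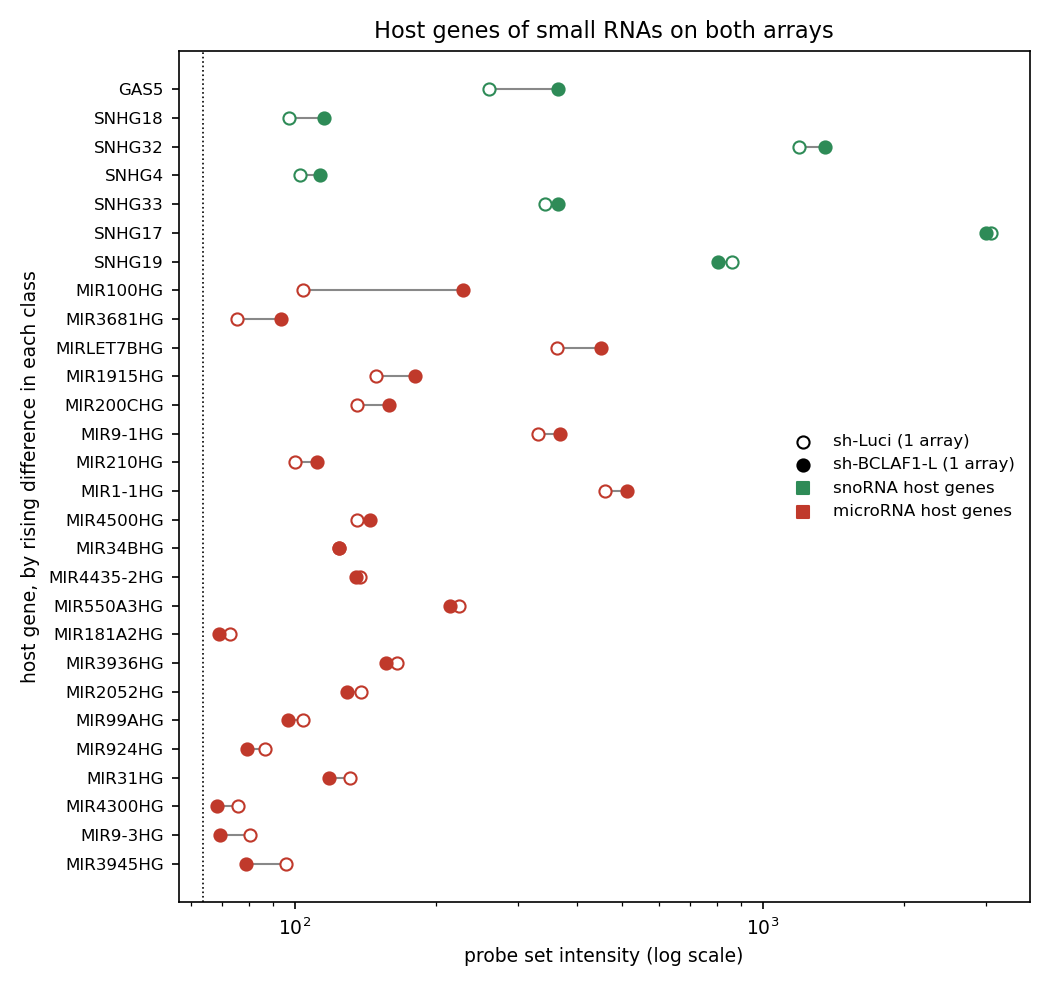
Intensity of each snoRNA host gene (green) and microRNA host gene (red) on the sh-Luci array (open) and the sh-BCLAF1-L array (filled), on a log axis, with the detection limit of 63.7 dotted. MIR100HG, from 104 to 229, has the widest gap of the microRNA hosts, and GAS5, from 259.6 to 365, the widest of the snoRNA hosts.

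Of the 7 snoRNA host genes, 5 were higher and 2 lower, with a median difference of 0.14, and the counts were the same under both subtractions. GAS5, named for its accumulation in growth-arrested cells, had the largest difference. It stood at 259.6 in sh-Luci and 365 in sh-BCLAF1-L, a difference of 0.49 or 1.41-fold, on the 1 probe set listed for GAS5 alone. SNHG18 read 97.1 and 116 (0.25), SNHG32 1198 and 1356 (0.18), and SNHG4 103 and 113 (0.14). SNHG33 read 342 and 366 (0.096), and another SNHG33 probe set 253 and 241 (-0.067). SNHG17, the brightest of these 7, read 3076 and 2999 (-0.037), and its second probe set 1421 and 1209 (-0.23). SNHG19 read 859.9 and 804 (-0.097). GAS5 was the only snoRNA host at least 25% higher.

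Many probe sets of snoRNA hosts list snoRNAs beside the host, and these were left out of the members. Of 26 such probe sets 23 were detected, with 14 higher, 9 lower and a median of 0.018. A further 9 list SNHG4 with the coding gene MATR3, of which 8 were detected, 3 higher and 5 lower, with a median of -0.045. The 4 that list GAS5 with its snoRNAs gave stronger signals than the probe set for GAS5 alone, at 913 to 6009 in sh-Luci and 1019 to 6431 in sh-BCLAF1-L. They differed by 0.036 to 0.16, against 0.49 for the single-symbol probe set. The direction was shared by all 5 and the size was not.

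MALAT1, the abundant RNA of nuclear speckles, gave a result that depended on the probe set. The brightest of its 12 probe sets, which stands for the gene here, read 4580 in sh-Luci and 4105 in sh-BCLAF1-L, a difference of -0.16. The other lower one read 2509 and 2244, also -0.16. The remaining 10 were higher in sh-BCLAF1-L. Among these the next brightest read 3771 and 4400 (0.22), 1732 and 2313 (0.42), 1413 and 1856 (0.39) and 1183 and 1516 (0.36). The largest difference, 0.89, came from a probe set at 276 and 511, the only one past 1.5-fold. The median over the 12 was 0.32, with an SD of 0.29 across probe sets, and 6 were at least 25% higher. By name, 7 are _x_at probe sets, which can bind other transcripts, 4 are _s_at probe sets, which match several transcripts, and 1 is an _at probe set. No direction is given for the gene.

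NEAT1, the scaffold RNA of paraspeckles, is listed with the microRNA gene MIR612 on all of its 9 probe sets. Of these 8 were detected, with intensities from 89.9 to 1944 in sh-Luci and from 82.5 to 2342 in sh-BCLAF1-L. The differences ran from -0.12 to 0.35 with a median of 0.14, and 7 were above 0. The pair of brightest ones read 1903 and 2342 (0.30), and 1944 and 2183 (0.17). Neither was 25% higher. Dimmer ones at 259.6 and 327 (0.33) and at 112 and 142 (0.35) were, and the other detected ones were not.

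**Figure D2:**
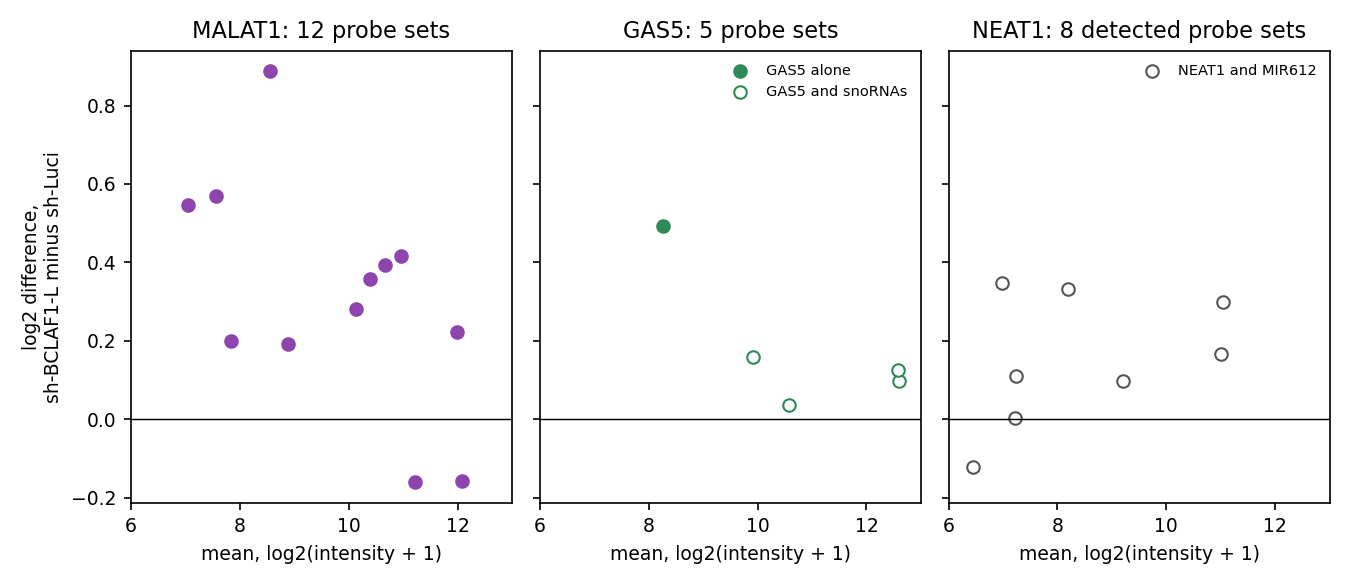
Log2 difference, sh-BCLAF1-L minus sh-Luci, against mean log2(intensity + 1) for each probe set of MALAT1, GAS5 and NEAT1, with open points for probe sets that list further genes. MALAT1 spreads from -0.16 to 0.89 over 12 probe sets, the GAS5 probe set with 1 symbol lies at 0.49 above the 4 joint ones, and the NEAT1 probe sets run from -0.12 to 0.35.

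The antisense and intronic transcripts had a median difference of 0.055, with 230 higher (60.2%) and 152 lower. Of all detected genes 55.0% were higher. After subtraction of the median difference of all probe sets, 209 were higher (54.7%) and 173 lower, against 48.0% higher of all detected genes. Those past 1.5-fold, besides MIR100HG, were all antisense transcripts with higher values in sh-BCLAF1-L. CD81-AS1, opposite the tetraspanin gene CD81, read 53.4 in sh-Luci and 95.0 in sh-BCLAF1-L (0.82, 1.77-fold). IQCF5-AS1 read 51.2 and 88.1 (0.77, 1.71-fold). Both lay below the detection intensity in sh-Luci and above it in sh-BCLAF1-L. WWTR1-AS1, opposite the gene of TAZ, a co-activator of the Hippo pathway, read 131 and 219.7 (0.74, 1.67-fold). A second WWTR1-AS1 probe set, not detected, read 59.3 and 46.8 (-0.33). PLCH1-AS1 read 80.9 and 129.9 (0.68, 1.60-fold). These genes had 1 detected probe set each.

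In all, 5 of 411 members were at least 1.5-fold higher, 1.22%, against 0.434% of all detected genes. No member was at least 1.5-fold lower, against 0.2%. At the lower threshold, 29 members were at least 25% higher and 8 at least 20% lower, or 7.06% and 1.95%, against 4.16% and 2.21% of all detected genes. CD81-AS1 and IQCF5-AS1, among the 5, were below the detection intensity in sh-Luci and passed the filter only through their sh-BCLAF1-L values. The members were picked with this contrast known, so these shares are a description and not an excess. With the 60th percentile filter, 2 of 200 members were at least 1.5-fold higher. With a pseudocount of 32 in place of 1, only 2 of the 5 remained past 1.5-fold.

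CNTFR-AS1 and HDAC4-AS1 followed below 1.5-fold. CNTFR-AS1, opposite the receptor gene for ciliary neurotrophic factor, read 119.7 and 179 (0.58). Its second probe set, not detected, read 39.3 and 38.1 (-0.041). HDAC4-AS1, opposite a histone deacetylase gene, read 94.2 and 131 (0.48). At the other end, CARD8-AS1, opposite an inflammasome regulator, read 124 and 90.2 (-0.46, 1.37-fold lower). DLGAP1-AS2 read 104 and 76.6 (-0.43), with a second probe set at -0.098. FAS-AS1, opposite the gene of the death receptor FAS, read 89.4 and 67.3 (-0.40). PSMD6-AS2, opposite a proteasome subunit gene, read 98.7 and 74.7 (-0.40). ERICH1-AS1 read 135 and 104 (-0.37), but 0.094 on its second probe set. NFIA-AS2, named for the transcription factor gene NFIA, read 379 and 293 (-0.37). Its other probe sets, not detected, read 44.1 and 57.2 (0.37), and 52.3 and 45.7 (-0.19). Of these 6 lowest, NFIA-AS2 alone stood above 200 in both arrays, on its brightest probe set.

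The 12 brightest antisense and intronic transcripts differed little. TNRC6C-AS1, at 2531 and 2963, had the largest difference of the 12, 0.23. OIP5-AS1, a conserved RNA also known as cyrano, read 1524 and 1654 (0.12), and its other probe sets differed by 0.28 and 0.22. FAM131B-AS2 read 1349 and 1327 (-0.023), and HLA-F-AS1, from the HLA region, 1267 and 1198 (-0.081). PRR34-AS1 read 929 and 1016 (0.13), FGD5-AS1 929 and 953 (0.036), WAC-AS1 898 and 908 (0.017) and EPB41L4A-AS1 873 and 899 (0.042). ZNF649-AS1 read 816 and 939 (0.20), MALRD1-AS1 803 and 813 (0.018), TNFRSF14-AS1 741 and 814 (0.14) and ARHGAP22-IT1 695 and 742 (0.093). All 12 lay within the lower threshold. Dimmer probe sets of FAM131B-AS2 (0.15), FGD5-AS1 (-0.11), EPB41L4A-AS1 (-0.12) and TNFRSF14-AS1 (-0.097) went the other way. Of the 11 intronic transcripts, 6 were higher and 5 lower. SPRY4-IT1, at 331 and 279, had the lowest difference of them, -0.25, and was picked out after its value was seen.

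**Figure D3:**
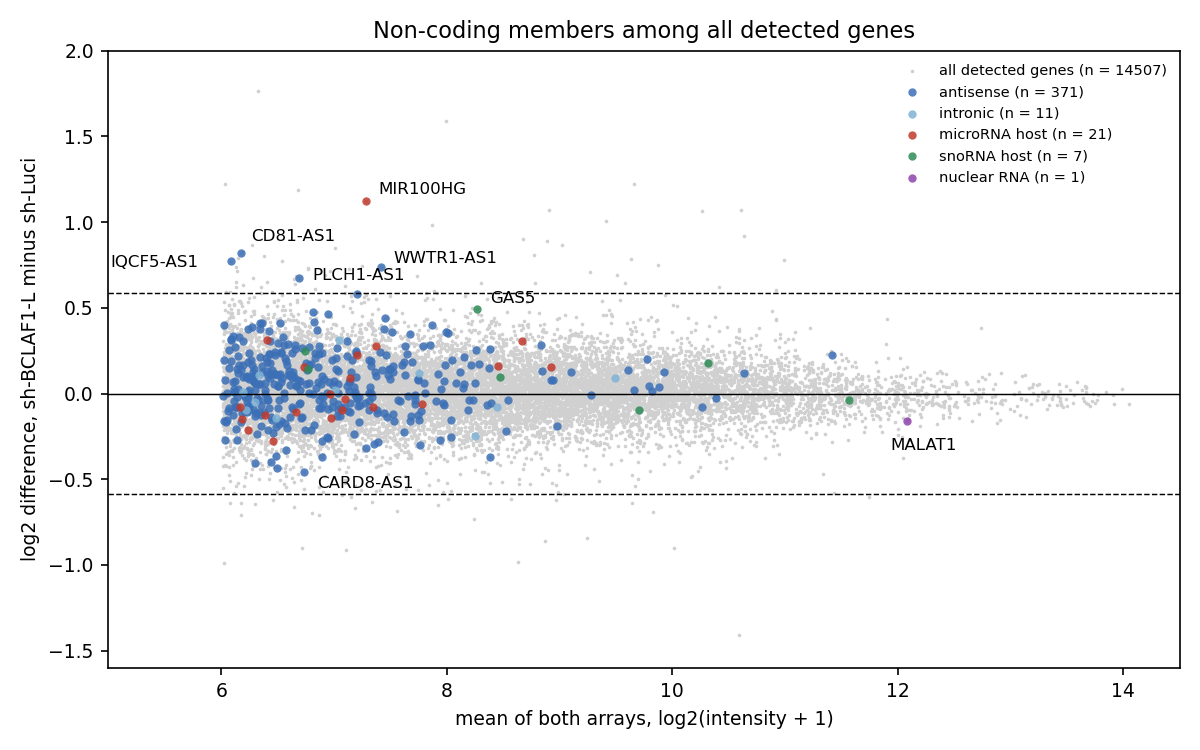
Log2 difference, sh-BCLAF1-L minus sh-Luci, against mean log2(intensity + 1) for the 411 members by class (coloured) and all 14507 detected genes (grey), with dashed lines at 1.5-fold. The 5 members above the upper line all have means below 256, and the brightest member, MALAT1, lies at -0.16.

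Probe sets of the members gave weaker signals than those of other genes, so signal is given beside the counts. Their median intensity was 107 in sh-Luci and 114 in sh-BCLAF1-L, against 268 and 272 over all detected genes. A mean under 128, taken over intensity + 1 on the log2 scale, was found in 240 members (58.4%) and in 26.7% of all detected genes. Between 64 and 128, 18 of 240 members (7.50%) were at least 25% higher, against 7.21% of the other detected genes. Between 128 and 256 the shares were 7.63% (9 of 118) and 4.07%, and between 256 and 512 they were 5.71% (2 of 35) and 3.24%. Above 512 none of 18 members passed, against 2.10%. In the range that held most members, the share was near that of other genes.

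**Figure D4:**
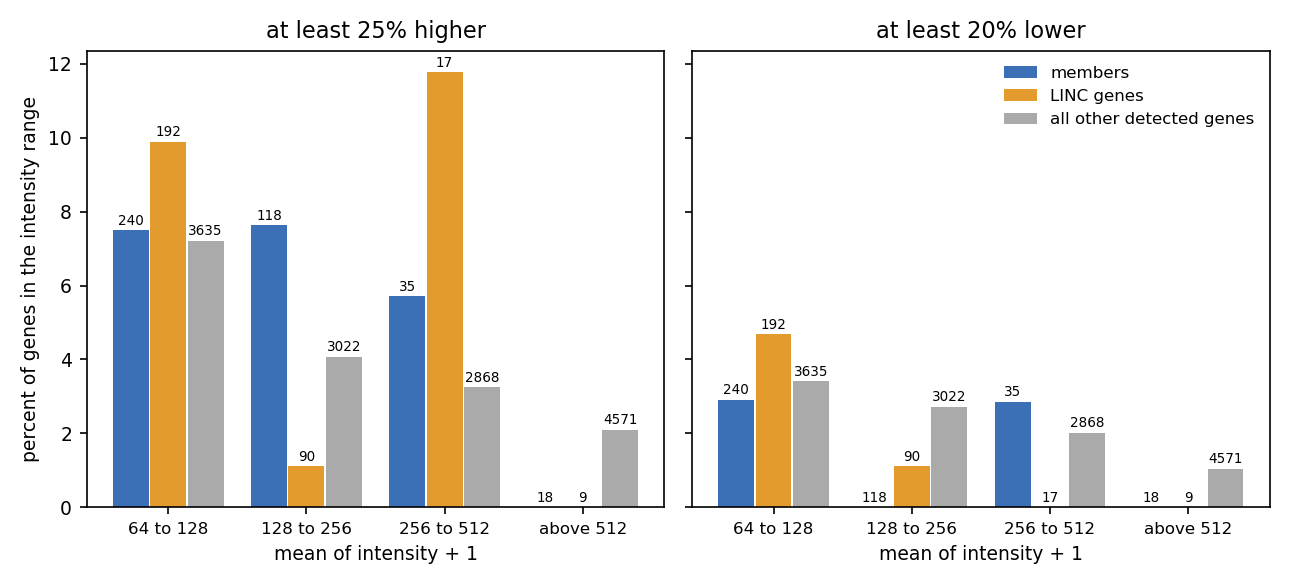
Percent of genes at least 25% higher (left) or at least 20% lower (right) in sh-BCLAF1-L by mean of intensity + 1, for members, genes with LINC symbols and all detected genes that are not members, with the number of genes above each bar. Between 64 and 128 the members (7.50%) and the other detected genes (7.21%) lie close together on the left.

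Over all members the difference had a median of 0.055, quartiles of -0.079 and 0.17, and a range from -0.46 to 1.13. It was above 0 in 244 members (59.4%), against 55.0% of all detected genes, whose median was 0.019. After subtraction of the median difference of all probe sets, 54.3% of members and 48.0% of all detected genes were above 0. The split of all detected genes past the lower threshold moved with it, from 603 higher and 320 lower to 462 and 422, while that of the members moved from 29 and 8 to 25 and 10. Detected genes with LINC symbols, another class of long non-coding RNAs, had a median of 0.037, with 22 of 308 higher and 10 lower at that threshold. Differences on probe sets of 1 gene had a pooled SD of 0.16 (1.12-fold) over 6752 genes. The SD was 0.19 in the 72 members with several detected probe sets. Of these 72, 26 were higher on all their probe sets, 8 were lower on all, and 38 had probe sets in both directions.

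The 440 genes of these symbols that were not detected held 19 at least 1.5-fold higher and 5 at least 1.5-fold lower. No share over all undetected genes is given beside these counts, so they cannot be read as more or fewer than elsewhere. In 79 of the 440 genes both intensities were under 20. The limit itself fell between IGFBP-AS1, at 64.0 and 63.4, and DPP10-AS3, at 59.7 and 68.5, just inside it, and H1-10-AS1, at 57.8 and 69.8, and AFAP1-AS1, at 64.1 and 61.4, just outside.

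Antisense and intronic transcripts were set beside the genes they are named after. Of 382 antisense and intronic members, 344 had a partner with its own probe set and 291 a detected partner. RefSeq lists 288 of these partners as protein-coding and 3 as lncRNA, GAS5 among them. Member and partner differed in the same direction in 149 of 291 pairs (51.2%). Across pairs the differences had Pearson's r = -0.013 and Spearman's rho = -0.011, given as a description over gene pairs that share both arrays. Past the lower threshold, 8 partners were higher (2.75%) and 5 lower (1.72%), against 4.16% and 2.21% of all detected genes. No partner reached 1.5-fold in either direction, against 0.434% and 0.2%.

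The largest differences of the antisense transcripts were not matched in size by their partners. WWTR1 read 962 and 811 (-0.25), with its other detected probe sets at -0.080 and -0.32, while WWTR1-AS1 differed by 0.74. CD81 read 2271 and 1965 (-0.21), while CD81-AS1 differed by 0.82. IQCF5 read 114 and 136 (0.26), in the same direction as IQCF5-AS1. CARD8 read 134 and 137 (0.034), CNTFR 119 on each array (0.0031) and PSMD6 2573 and 2470 (-0.059). NFIA read 538 and 579 (0.11) and ERICH1 297 and 283 (-0.071). FAS read 385 and 370.3 on its brightest probe set (-0.055), with dimmer ones at -0.077, -0.36 and -0.35. HDAC4 read 126 and 159 (0.34), and HDAC4-AS1 with HDAC4 was the single pair in which both were at least 25% higher. On the remaining detected HDAC4 probe sets the difference was 0.073 and -0.069.

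**Figure D5:**
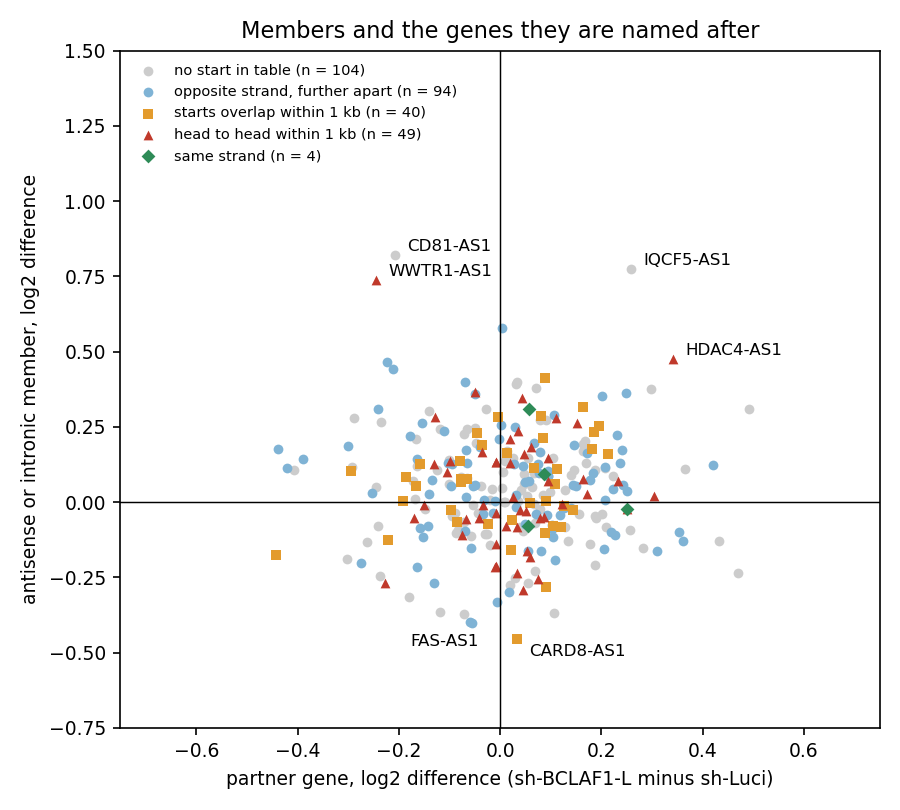
Log2 difference of each of 291 antisense or intronic members against that of its detected partner gene, by arrangement of the starts in the promoter table. The points show no common line (Pearson's r = -0.013), and HDAC4-AS1 is alone in being past the lower threshold together with its partner.

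Where RefSeq promoter windows gave both starts, pairs were sorted by arrangement. In 49 pairs the starts lay head to head within 1 kb, so that both genes could be read outward from 1 promoter region. Of these, 27 differed in the same direction (55.1%), with r = 0.011 over pairs. In 40 pairs the transcripts overlapped at starts within 1 kb, and 18 agreed in direction (45.0%, r = 0.23). In 94 pairs the starts lay further apart on opposite strands, and 46 agreed (48.9%, r = -0.11). None of these shares was tested, since gene pairs are not replicates of the arrays.

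The windows of 3 head-to-head pairs show how close such starts can be. Each covers 250 bases before to 50 after the start of the antisense transcript, from RefSeq on GRCh38.p14, written 5′ to 3′ on the strand of that transcript. Capitals run from the start of the coding partner, read the opposite way, to the start of the antisense transcript. WWTR1-AS1 (chr3:149657960-149658259, plus strand) has 185 bases between the starts, HDAC4-AS1 (chr2:239401470-239401769, plus strand) 71, and EIF1B-AS1 (chr3:40309649-40309948, minus strand) 9. They were chosen after their values were seen, as a pair with opposite differences, the pair with both genes past the lower threshold and a pair whose starts nearly touch.
WWTR1-AS1: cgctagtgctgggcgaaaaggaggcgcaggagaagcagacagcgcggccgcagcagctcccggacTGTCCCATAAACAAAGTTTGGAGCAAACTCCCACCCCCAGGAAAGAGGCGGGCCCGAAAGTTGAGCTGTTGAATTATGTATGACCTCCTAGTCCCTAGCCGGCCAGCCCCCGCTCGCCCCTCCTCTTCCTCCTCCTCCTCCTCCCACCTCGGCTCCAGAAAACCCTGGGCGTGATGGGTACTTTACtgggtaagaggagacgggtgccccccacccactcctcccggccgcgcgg
HDAC4-AS1: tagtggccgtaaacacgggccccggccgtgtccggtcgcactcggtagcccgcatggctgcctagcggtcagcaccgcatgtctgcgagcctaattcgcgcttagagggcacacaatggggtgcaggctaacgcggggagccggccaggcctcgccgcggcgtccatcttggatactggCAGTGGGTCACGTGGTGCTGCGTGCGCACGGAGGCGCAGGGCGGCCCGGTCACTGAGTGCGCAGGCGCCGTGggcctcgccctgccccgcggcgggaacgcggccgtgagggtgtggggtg
EIF1B-AS1: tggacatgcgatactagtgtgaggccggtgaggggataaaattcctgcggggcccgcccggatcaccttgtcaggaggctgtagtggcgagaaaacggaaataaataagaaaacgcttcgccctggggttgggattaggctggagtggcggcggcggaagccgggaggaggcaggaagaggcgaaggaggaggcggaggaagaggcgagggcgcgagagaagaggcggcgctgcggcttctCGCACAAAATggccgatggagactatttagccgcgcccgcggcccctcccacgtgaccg
EIF1B-AS1, opposite a translation initiation factor gene and picked out after its values were seen, read 74.5 and 96.4 (0.37), while a second probe set of nearly the same brightness read 86.9 and 79.8 (-0.12). EIF1B read 2158 and 2086 (-0.049).

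Motifs were searched on both strands in the 377 windows of 308 members and in all 35116 windows of the table. CACGTG, the E-box bound by MYC and related factors, was found in 7.26% of all windows and 6.63% of the members' windows. The 23 members with it, 13 higher and 10 lower, had a median difference of 0.11, against 0.056 for the members without it. HDAC4-AS1 and EIF1B-AS1 were among the 23, and so was DLGAP1-AS2 (-0.43). TGANTCA, the AP-1 site, was found in 7.71% and 5.84%. The 22 members with it, 7 higher and 15 lower, had a median of -0.053, against 0.063 without it. TATAAA, the TATA box, was found in 11.5% and 6.90%. The 24 members with it, 11 higher and 13 lower, had a median of -0.027, against 0.060 without it. MIR100HG had 6 windows, of which 1 held TATAAA. A match describes letters only.

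Genes whose products make or remove these RNAs were taken as 4 lists, and none of their detected genes passed the lower threshold in either direction. Of all detected genes, 4.16% passed it upward and 2.21% downward, so lists this short could hold few or none at those shares. A difference above 0 was found in 55.0% of all detected genes. Of 9 proteins of snoRNA-protein particles, 8 were lower and 1 higher (median -0.059), and FBL, the methyltransferase of box C/D particles, read 3815 and 3807. Of 8 nonsense-mediated decay factors, 4 were higher and 4 lower (median -0.0067), and EIF4A3, a core subunit of the exon junction complex, read 2150 and 2201. Of 11 paraspeckle proteins, 3 were higher and 8 lower (median -0.037), and HNRNPK was brightest at 4496 and 4399. Of 12 microRNA processing factors, 5 were higher and 7 lower (median -0.012), and AGO2, which holds the microRNA and cuts its target, read 1067 and 927. TNRC6A, a partner of the AGO proteins, came closest to the threshold, at 380.3 and 311 (-0.29).

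Array medians were 82.7 and 84.5, and the number of arrays limits the precision. Hybridisation spike-ins were higher on the sh-BCLAF1-L array on 18 of 18 probe sets, with a median of 0.20. Poly-A controls were higher on 13 of 27, with a median of -0.035 and a range from -0.48 to 0.19. The ratio of 3' to 5' signal was 3.41 and 3.81 for ACTB and 1.38 and 1.49 for GAPDH. Of 8 colon epithelium markers 5 were detected, and the summed intensity of all 8 was 1768 and 1499.6. EPCAM read 477 and 472, KRT18 979 and 674, KRT8 96.0 and 97.6, CDX2 67.4 and 77.3 and VIL1 61.1 and 67.5. Those not detected were CDH1, at 24.6 and 35.6, KRT19, at 46.4 and 61.1, and KRT20, at 15.6 and 14.6. The lower sum thus came with the lower KRT18 value. The summed intensity was 621 and 682 for 5 fibroblast markers, 407 and 425 for 4 blood markers with PTPRC and CD14 not detected, and 316 and 329 for 3 endothelial markers with CDH5 not detected. The part of these values in the members' differences was not tested. In RNA from a whole culture, fewer cells with a transcript and less of it per cell cannot be told apart.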

How the data were processed

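The deposited table gives 1 linear intensity per probe set for each of 2 arrays of total RNA. The authors used RMA, a background correction, normalization and summary of probes, per the submitters' processing notes. Program, version, genome build and final scaling were not given in the sources used here. Intensities were changed to log2(intensity + 1), and differences are sh-BCLAF1-L minus sh-Luci. Leftover background in dim probe sets would make folds smaller. The lowest intensity was 1 on both arrays, and with the final scaling unknown, folds of dim probe sets may also be too large. A gene took its probe set with the highest mean log2 value among the 41097 probe sets with 1 symbol. The other 1801 with several symbols and 11777 with none were left out of the members. RefSeq (GRCh38.p14) held 406 of the 411 members, 403 of them as lncRNA.

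The members and lists were chosen with earlier results of these data known. Genes named were MIR100HG, MALAT1, NEAT1, GAS5, all SNHG and microRNA host members, the 12 brightest antisense or intronic members and the 6 with the largest difference each way, partners of those, list genes past the lower threshold or brightest in a list, and genes at the detection limit. With 1 array per group no test was made. Alternatives were the median over probe sets, leaving out _s_at, _x_at and _a_at probe sets, no filter, a 60th percentile filter, subtraction of the median or of a loess curve (span 0.3), a pseudocount of 32 and other folds. Jointly listed probe sets and a filter on plain means were added after seeing the data. The scripts (Python 3.11.15, pandas 2.3.3, numpy 2.4.6, statsmodels 0.14.6) were tested on simulated data.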

Additional observations from a re-analysis of the deposited data

Results flagged for a closer look

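One result lay outside the probe sets with a single symbol. A probe set that lists MIR23AHG together with MIR23A and MIR24-2 read 119 in sh-Luci and 203 in sh-BCLAF1-L, a difference of 0.77, or 1.70-fold. It was the only one past 1.5-fold among 71 detected probe sets that list a gene of these classes with others, whose median was 0.036. A second probe set with the same 3 symbols read 233 and 218, a difference of -0.096. It was set apart because its signal was above that of the control array in data the comparisons did not use. The disagreement between both probe sets was not tested.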

How the results depend on the processing

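No paired analysis was possible because only 1 array represents each group. A value counted as moved when it shifted by more than the spread between probe sets of a gene (for medians, that spread over the root of the number of genes). MIR100HG moved under 2 of the alternatives but stayed higher. It stood at 0.60 with the median over its probe sets, which includes the undetected one, and at 0.94 with a pseudocount of 32. The members' median was 0.041 with the 60th percentile filter, 0.029 after median subtraction, 0.030 after loess and 0.042 with a pseudocount of 32, and that of antisense and intronic transcripts 0.040, 0.029, 0.030 and 0.043. The microRNA hosts' median was -0.077 without _s_at, _x_at and _a_at probe sets and 0.092 with the 60th percentile filter. That of SNHG genes with GAS5 was 0.052 without a filter, over 12 genes. The count of members past 1.5-fold higher, 5, was 24 without a filter, 2 with the 60th percentile filter and 2 with a pseudocount of 32. That count was 4 with the median over probe sets, 1 at 2-fold and 29 at the lower threshold of 25%. For lower members, 0 became 5 without a filter and 8 at 20% lower. The counts without a filter have no share over all unfiltered genes beside them. Of the genes named, 11 moved with the median over probe sets, 5 without multi-transcript probe sets and 2 with a pseudocount of 32 (CD81-AS1 to 0.57 and IQCF5-AS1 to 0.53). Among the 11, WWTR1-AS1 went from 0.74 to 0.20, CNTFR-AS1 from 0.58 to 0.27 and NFIA-AS2 from -0.37 to -0.19, with undetected probe sets in the median. With the median over probe sets, signs changed for MALAT1 (0.32), MIR99AHG (0.32), MIR550A3HG (0.11), MIR9-1HG (-0.10), FAM131B-AS2 (0.053), EPB41L4A-AS1 (-0.040), FGD5-AS1 (-0.039) and TNFRSF14-AS1 (-0.019). Without multi-transcript probe sets they changed for MALAT1 (0.20), FAM131B-AS2 (0.15), MIR9-1HG (-0.19) and MIRLET7BHG (-0.12), and after median subtraction for MALRD1-AS1 (-0.0075) and WAC-AS1 (-0.0092). The cause was not tested. Dim signal limits 240 members, whose mean lay under 128.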
